A study of Mus musculus with 18 samples.

Results

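The response of vehicle-treated RAW264.7 cells to lipopolysaccharide (LPS) was measured on 6 of the 18 arrays of the series, 3 from cells given vehicle and LPS and 3 from cells given vehicle alone. Both groups were RAW264.7, an established mouse macrophage line, kept in high-glucose medium with 10% serum and carrying 0.1% DMSO, the vehicle. The LPS group also had LPS at 10 ug/mL for 8 h. All treatments were added in the dark and followed by 30 min of ambient light, so the light exposure was common to both groups. The other 12 arrays, from cells given a Hypericum perforatum sub-fraction or a mixture of 4 of its compounds with and without LPS, entered the same statistical model and are used at the end. RAW264.7 is a single tumour-derived line. Whether the replicates of a group were grown as separate cultures is not stated in the labels, and p-values therefore reflect only the scatter of these samples, part of which may be technical.

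LPS is a component of the outer membrane of Gram-negative bacteria. It is sensed by Toll-like receptor 4 with its partners MD-2 and CD14, which signal through MyD88 and TRIF to NF-kB, to the AP-1 factors and to interferon regulatory factors. Cytokine and chemokine genes are the best-known targets. Members of 4 other classes are described here, namely transcription factors with chromatin enzymes, receptors, transporters and metabolic genes. They were grouped in 31 lists by textbook family. The lists and their members were chosen with earlier results of these data known, so their shares are descriptive.

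RNA was hybridized to Affymetrix mouse genome arrays, on which a gene is read by one or more probe sets. The deposited MAS5 signals are linear intensities with a 2% trimmed mean of 500.0 on each array. On the 6 arrays the medians ran from 52.1 to 61.9 and the highest signal was 33105. Signals were floored at 1 and taken to log2, and the brightest kept probe set stood for each of 11547 tested genes. Arrays of one group correlated at 0.971 to 0.979 over these genes and arrays of different groups at 0.930 to 0.953. The first principal component separated LPS from vehicle and held 57.3% of the variance. The second held 13.4% and set both arrays numbered 1 apart from the others, most of all the LPS array numbered 1, whose score was -33.57 against 13.31 and 10.36 for the other LPS arrays. Of 10 macrophage marker genes, 9 were tested, and Mrc1 lay under the array median on all 6 arrays. The summed signal of the 10 was 77357 to 91328 on vehicle arrays and 97147 to 104651 with LPS. Of 24 markers of other cell types with a probe set, 15 lay under the median on all 6 arrays, and their summed signal was 533 to 686 without and 767 to 1058 with LPS. One of the 24, the epithelial marker Epcam, rose with LPS from 39.0, 29.6 and 38.4 to 107, 124 and 127 (adjusted p = 0.00604). Its probe set may also bind related transcripts. Krt8, another epithelial marker, did not pass, and Krt18 and Cdh1 lay under the median on all 6 arrays. The part of such marker signals in the results below was not tested.

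LPS changed 3680 of the 11547 tested genes (31.9%) at an adjusted p under 0.05 in limma's moderated test with Benjamini-Hochberg adjustment. Of these, 1161 (10.1%) were higher and 2519 (21.8%) were lower with LPS. The 3 LPS arrays did not overlap the 3 vehicle arrays for 4796 genes (41.5%). A change of at least 2-fold was reached by 410 higher genes (3.55%) and by 410 lower genes (3.55%). The median log2 change of all tested genes was -0.075. The excess of falls depended on the scaling: after each array was centred on its median, the median change moved to 0.05, and 1727 genes were higher and 1574 lower. Counts of higher and lower members below are therefore given with those after centring wherever the share of higher calls moved by over 10 percentage points. Without the arrays numbered 1 of all groups, 1057 genes were higher and 2138 lower, and the classes below had 59 and 62 (transcription factors), 51 and 20 (receptors), 26 and 36 (transporters) and 37 and 79 (metabolic genes). A lower signal in such bulk samples can come from less RNA per cell or from fewer cells with the RNA, and these cannot be told apart.

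**Figure D1:**
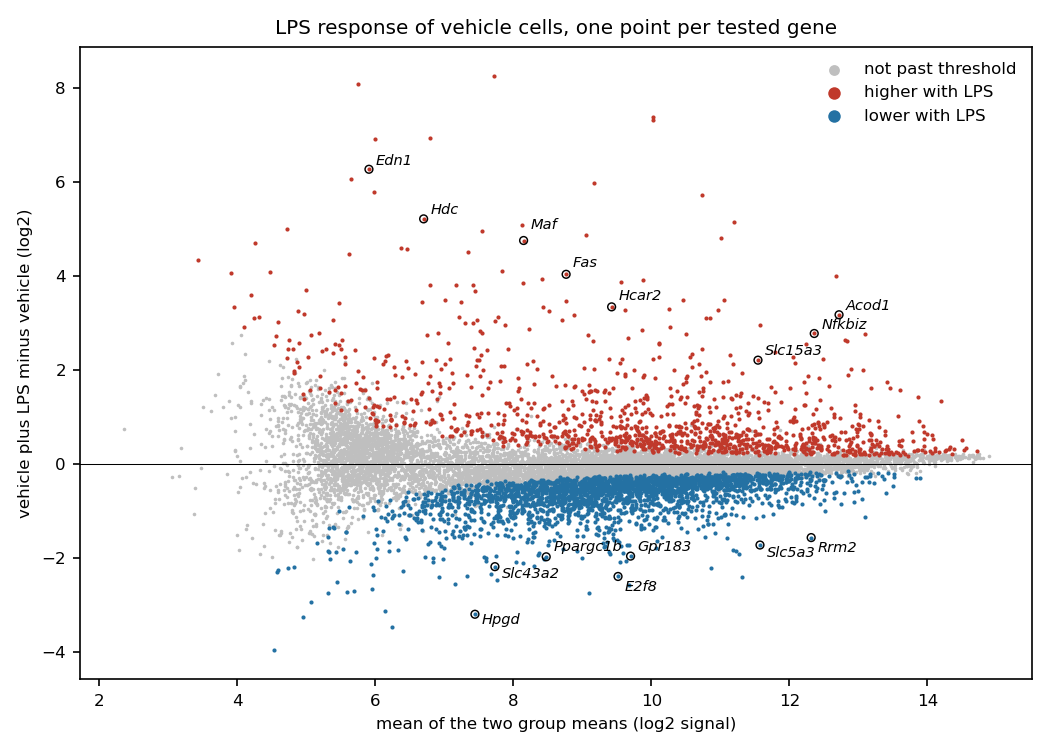
The horizontal axis is the average of both group means in log2 signal, and the vertical axis is the log2 difference of the LPS group from the vehicle group, with one point for each of the 11547 tested genes. Red points (1161) were higher and blue points (2519) lower at an adjusted p under 0.05, grey points did not pass, and circled genes are described in the text. The largest rises lie above log2 6, while only a few falls reach log2 -3.

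Several of the largest rises outside the cytokines were of secreted or extracellular proteins and of an enzyme. Edn1, the precursor of the vasoconstrictor endothelin-1, gave 5.60, 6.90 and 8.20 on the vehicle arrays and 168, 897 and 959 with LPS. All 3 vehicle signals lay under the array median, so its rise is at least 9.48-fold (adjusted p = 7.25e-07). Hdc, histidine decarboxylase, which makes histamine, gave 9.80, 54.1 and 9.40 without and 379, 919.5 and 722 with LPS, at least 11.4-fold higher (adjusted p = 8.32e-07), on a probe set that may also bind related transcripts. Tnc, the extracellular matrix protein tenascin-C, gave 54.3, 42.9 and 48.5 without and 1074, 2095 and 1922 with LPS, at least 29.4-fold higher (adjusted p = 6.35e-10). In all 3 genes the lowest LPS array lay far above the highest vehicle array, and groups that did not overlap were a condition for naming them. Mmp13, a collagen-cleaving metalloproteinase, was at least 7.34-fold higher and the zinc finger gene Zfp811 at least 8.40-fold higher. Among the largest falls, Ung, the uracil-DNA glycosylase of base excision repair, dropped from 1299.7, 1522 and 1451 to 285, 172 and 192, 6.73-fold lower (adjusted p = 2.11e-08). Arrdc3, an arrestin-domain protein, was at least 5.67-fold lower. Angptl4, an inhibitor of lipoprotein lipase, was at least 4.13-fold lower on a probe set that may also bind related transcripts.

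Transcription factors moved in both directions. Of 229 tested factors and chromatin enzymes, 60 (26.2%) were higher and 71 (31.0%) lower, against 10.1% and 21.8% of all tested genes. The factors and enzymes had a median log2 change of -0.041, and 35 rose and 25 fell at least 2-fold. The lists differed by family. Of the NF-kB and IkB genes 9 of 10 were higher, the bZIP and zinc finger lists held more higher than lower members with many that did not pass, and of the E2F, Myb and cell cycle factors 13 of 16 were lower. In every gene described below as risen or fallen, the 3 LPS arrays lay wholly to one side of the 3 vehicle arrays. This was a condition for choosing most of these genes and held for 41.5% of all tested genes, so it adds no support.

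Rel-homology subunits of NF-kB are held in the cytoplasm by IkB proteins, and several IkB genes are themselves NF-kB targets. Of 10 tested NF-kB subunit and IkB genes, 9 were higher and none lower. Nfkbiz, a nuclear IkB protein that acts with NF-kB as a co-activator, gave 1729, 1936 and 2447 without and 10835, 14297 and 16717 with LPS, a 6.81-fold rise (log2 2.77 ± 0.15, SE, adjusted p = 1.82e-10). Bcl3, another nuclear IkB protein, rose 4.43-fold from 383, 344 and 343 to 816, 2016 and 2396, with the LPS array numbered 1 the lowest of its group. Nfkbie, an inhibitory IkB protein, rose 4.09-fold. Among the subunits, Rel rose 3.69-fold and Nfkb2 2.84-fold, while Rela, the p65 subunit, gave overlapping signals of 1651, 1834 and 1454 and 1484, 1686 and 1689 (log2 -0.02 ± 0.12, adjusted p = 0.917). Nfkbia, the main inhibitor, was already bright at 11236, 11915 and 12562 and rose 1.75-fold.

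Among the bZIP factors, which bind DNA as dimers through a leucine zipper, 16 of 35 were higher and 3 lower (17 and 1 after centring, and 1 lower without the vehicle array numbered 3). Maf, a large Maf protein of differentiated macrophages, gave 39.8, 81.8 and 50.4 on the vehicle arrays and 930.0, 1968 and 1733 with LPS, at least 26.5-fold higher (adjusted p = 4.3e-05), and a second probe set gave a log2 rise of 4.01. Maff, a small Maf protein without a transactivation domain, was at least 3.89-fold higher. Cebpd gave an even level of 2027, 2062 and 2107 on the vehicle arrays and 6322, 11075 and 10842 with LPS, a 4.42-fold rise (log2 2.14 ± 0.14, adjusted p = 1.69e-09), and its other probe set gave a log2 change of 0.12 and did not pass. Its relative Cebpa, a factor of myeloid differentiation, went the other way, from 1219, 1108 and 938 to 492, 412 and 422, 2.46-fold lower (log2 -1.30 ± 0.12, adjusted p = 1.63e-07). Atf3, a stress-induced repressor of inflammatory genes, rose 4.01-fold and Junb, an AP-1 subunit, 3.09-fold. Fosl2, another AP-1 subunit, rose 2.27-fold, with the LPS array numbered 1 at 555 against 1338 and 1407 on the other LPS arrays. Xbp1, the brightest of those that did not pass, gave a log2 difference of -0.06 ± 0.09, and it passed as lower after quantile normalization (-0.24).

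Of 12 interferon regulatory factors and STATs, 4 were higher and 1 lower (7 and 0 after centring, and 2 lower without the LPS array numbered 1 or 3). Stat5a rose 2.88-fold from 379.7, 278 and 315 to 768, 1003 and 1030.5, Stat2 2.29-fold and Stat3 1.94-fold. These are latent factors activated by cytokine receptors, and Stat2 serves the type I interferon receptor. Irf5, an interferon regulatory factor of inflammatory macrophages, did not pass (log2 -0.28 ± 0.12, adjusted p = 0.0894). It passed as lower with a replicate block and after quantile normalization.

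Of 30 Kruppel-like, EGR and other zinc finger genes, 13 were higher and 7 lower. Bcl6b, a transcriptional repressor, gave 88.0, 108 and 43.5 without and 386, 802 and 721 with LPS, an 8.14-fold rise (log2 3.02 ± 0.36, adjusted p = 2.94e-06). Zfp36, or tristetraprolin, which binds AU-rich mRNAs and promotes their decay, rose 5.88-fold from 1570.2, 2505 and 2024 to 8503, 13834 and 13723 (adjusted p = 1.47e-08). Its paralogue Zfp36l2 fell 3.01-fold from 3729, 3859 and 3792 to 1437, 1233 and 1131 (adjusted p = 1.12e-08). The paralogues thus lay on opposite sides of 0, though the other Zfp36l2 probe set gave a log2 change of -0.94 and did not pass. Hivep3 rose 3.88-fold on its brightest probe set and by a log2 of 1.60 on another, while its other probe sets gave -0.07 and -0.38 and did not pass. The immediate-early factor Egr1 rose 3.37-fold, Zeb2 2.70-fold and Klf6 2.38-fold. The Kruppel-like factors split, since Klf10, a TGF-beta-inducible member, fell 2.87-fold (log2 -1.52 ± 0.14) and Klf9, a glucocorticoid-inducible member, fell 1.94-fold, with 3 of its 6 probe sets passing.

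Lineage factors, nuclear receptors and bHLH factors had more members lower than higher, as did all tested genes (21.8% lower and 10.1% higher). Of 26 ETS, RUNX and related lineage factors, 5 were higher (3 without all arrays numbered 1) and 9 lower. Lyl1, a bHLH factor of haematopoietic progenitors, gave 3152, 3046 and 2898 without and 1039.5, 949.9 and 1098 with LPS, a 2.95-fold fall (log2 -1.56 ± 0.10, adjusted p = 6.35e-10). Etv5 fell 3.19-fold and Elk3, an ETS repressor, 2.44-fold, while Etv3, an ETS repressor induced in macrophages, rose 2.32-fold with the LPS array numbered 1 near the vehicle level at 1952. Of 24 nuclear receptors and co-regulators, 4 were higher (2 without the LPS array numbered 2) and 10 lower. Ppargc1b, a co-activator of mitochondrial and oxidative genes, gave 771, 710.4 and 647 without and 166, 157 and 221 with LPS, a 3.95-fold fall (log2 -1.98 ± 0.19, adjusted p = 1.65e-07). The circadian repressor Nr1d2 fell 2.36-fold and the retinoic acid receptor Rarb 2.28-fold.

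Of 36 bHLH, Myc-network, hypoxia and metabolic factors, 6 were higher and 13 lower. Myc, a driver of growth and proliferation genes, gave 60.8, 199 and 187 without and 1192, 1643 and 1554 with LPS, an 11.0-fold rise (log2 3.46 ± 0.35, adjusted p = 3.64e-07). Other members of its network compete for its partner Max. Of these, Mxd1 rose 4.05-fold and Mnt fell 2.14-fold. Id2, which blocks bHLH factors by dimerizing with them, fell 2.19-fold, and Epas1, or HIF-2alpha, fell 2.12-fold. Hif1a was bright at 5526, 5147 and 6323 and did not pass on its brightest probe set (log2 0.16 ± 0.09). It passed after centring (0.28). Another Hif1a probe set rose by a log2 of 0.39 and passed, and a further one gave -0.07 and did not.

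The E2F family stood at the other extreme from NF-kB. E2F proteins act on S-phase genes, some as activators and others, such as the products of E2f7 and E2f8, as repressors. Of 16 tested E2F, Myb and cell cycle factors 13 were lower and none higher (12 and 1 after centring). E2f2 gave 489, 541 and 512 without and 91.8, 75.3 and 114 with LPS, a 5.56-fold fall (log2 -2.47 ± 0.23, adjusted p = 1.29e-07). E2f8 fell 5.28-fold from 1552, 1749.7 and 1757 to 439.9, 290.4 and 254 (adjusted p = 1.87e-09), and E2f7 fell 4.32-fold. Foxm1, a driver of mitotic genes, fell 2.66-fold. Both activating and repressive E2F genes were thus lower. E2f5 gave a log2 difference of 0.31 ± 0.14 and did not pass (adjusted p = 0.106), but passed as higher after centring (0.43). Of 40 chromatin enzymes, 3 were higher and 15 lower (6 and 13 after centring, 6 and 15 after quantile normalization). Uhrf1, which brings the maintenance methyltransferase to replicating DNA, fell 3.80-fold from 4343, 5269 and 4838 to 1485, 1266 and 1076 (adjusted p = 1.91e-09), and that methyltransferase, Dnmt1, fell 2.16-fold. The histone deacetylase gene Hdac5 fell 2.18-fold. The risers included Kdm6b, a demethylase that removes a repressive histone mark, which gave 879.5, 726 and 715 without and 2742, 2653 and 3046 with LPS, a 3.65-fold rise (adjusted p = 1.91e-09), and Tet2, a methylcytosine dioxygenase, with a 2.14-fold rise.

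**Figure D2:**
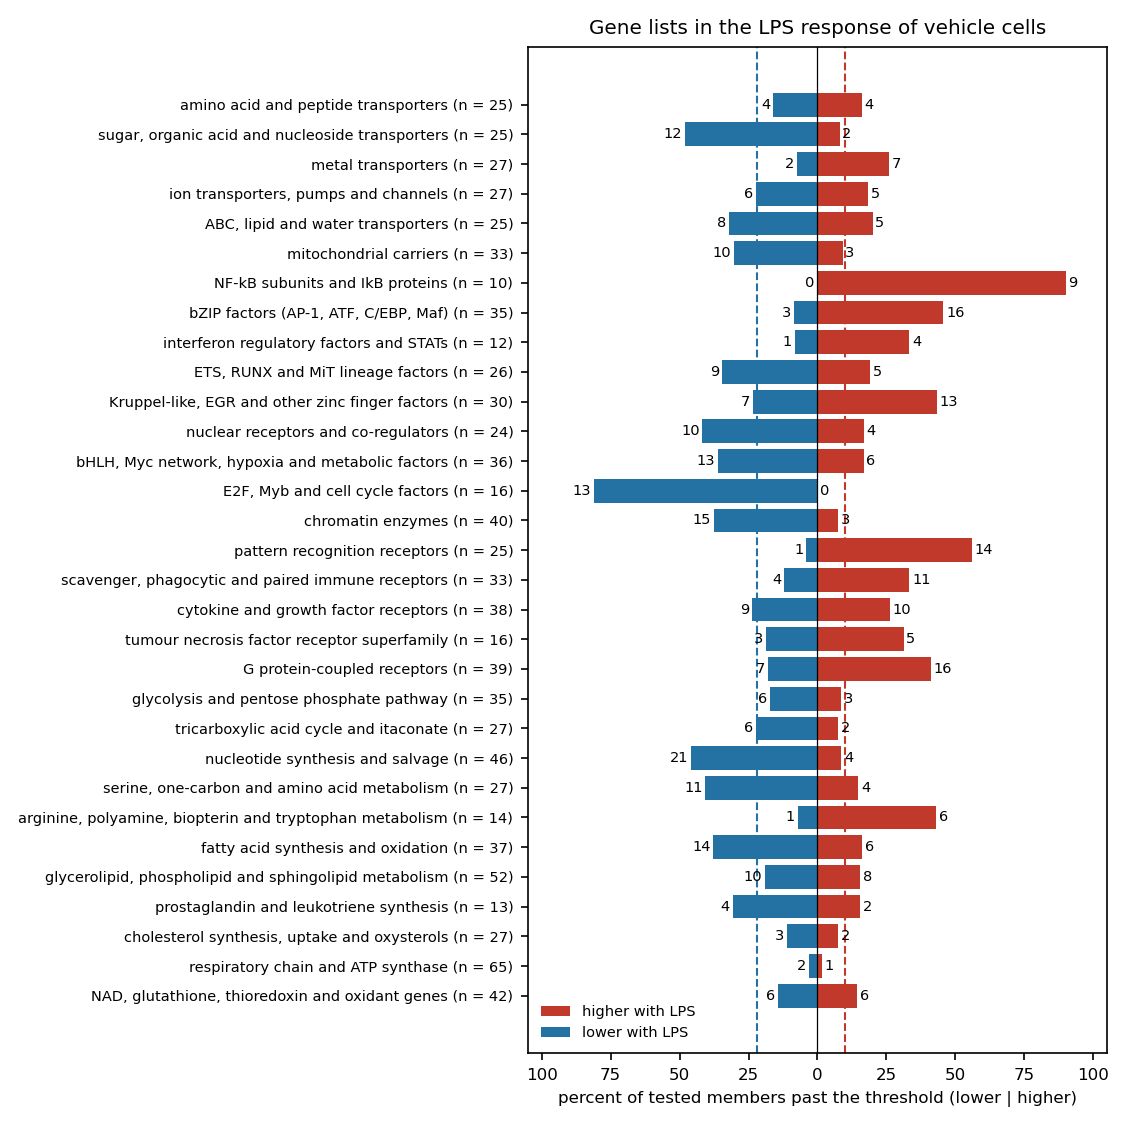
Bars give the percent of the tested members of each of 31 gene lists that were higher (red, to the right) or lower (blue, to the left) with LPS at an adjusted p under 0.05, with the number of members at each bar and the number tested in parentheses. Dashed lines mark the shares among all 11547 tested genes, 10.1% higher and 21.8% lower. NF-kB and pattern recognition genes reach furthest to the right, and E2F factors furthest to the left.

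Promoter letters are shown for some of the factors and receptors because most tested NF-kB and IkB genes rose and most tested E2F genes fell. Windows from 250 bases before to 50 after each start site were taken from RefSeq (GRCm38.p6), with 1 start site for each of 27025 genes, 9385 of them tested here. The kB motif was searched on both strands as 10-letter forms, namely GGGA and TTCC with any 2 bases between them, GGG and TTTCC with any 2 between them, or GGGAA followed by TTCCC, and a stretch can match more than one form. It was found in 2.70% of all windows, in 2.74% of those of tested genes, in 8.28% of the 314 windows of genes higher at least 2-fold and in 0.896% of the 335 of genes lower at least 2-fold. Among 92 list members that rose at least 2-fold, 5 had a match lying wholly before a listed start site. This count and those of the other motifs below used every listed start site, and the same share over all genes was not counted. Members without a window, or on a chromosome that the promoter rule set aside, were not searched. They stay in the totals of list members, so a member without a match may be one not searched. Of these 5, Nfkb2, Rel, Tnfrsf9 and C3ar1 are given 5′ to 3′ along the gene's strand, with matches in capitals. They lie at chr19:46304673-46304736 (+), chr11:23771026-23771085 (-), chr4:150927931-150927990 (+) and chr6:122856158-122856196 (-), within the bases just before the start sites:
Nfkb2: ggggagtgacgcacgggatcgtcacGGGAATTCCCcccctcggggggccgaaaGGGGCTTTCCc
Rel: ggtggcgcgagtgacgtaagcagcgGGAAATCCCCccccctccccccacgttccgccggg
Tnfrsf9: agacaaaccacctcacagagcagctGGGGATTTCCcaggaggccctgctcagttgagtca
C3ar1: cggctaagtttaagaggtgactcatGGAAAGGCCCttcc

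The E2F motif was searched as TTTGGCGC, TTTCCCGC and TTTCGCGC on both strands. It was found in 3.79% of windows of tested genes, in 8.06% of those lower at least 2-fold and in 2.23% of those higher at least 2-fold. Of 51 list members that fell at least 2-fold, 4 had a match wholly before a start site. The receptor gene Trem2 (log2 -1.04) was another of the 4 and is not shown. E2f7 at chr10:110745216-110745273 (+) and Uhrf1 at chr17:56304103-56304160 (+) are shown because both belong to the groups that fell:
E2f7: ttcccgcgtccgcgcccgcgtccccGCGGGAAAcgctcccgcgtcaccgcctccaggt
Uhrf1: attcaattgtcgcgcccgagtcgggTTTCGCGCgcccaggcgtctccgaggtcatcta

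A match is a description of letters in this window and shows neither binding nor control.

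More receptors were higher than lower. Of 151 tested receptor genes 56 (37.1%) were higher and 24 (15.9%) lower, against 10.1% and 21.8% of all tested genes. The receptors had a median log2 change of 0.266, and 36 rose and 9 fell at least 2-fold. Among pattern recognition receptors 14 of 25 were higher and 1 lower. Several sensors of nucleic acid rose. Ifih1, or MDA5, a sensor of long double-stranded RNA, gave 2255, 2660.5 and 2857 without and 8599.6, 10154 and 9676 with LPS, a 3.67-fold rise (log2 1.87 ± 0.13, adjusted p = 1.93e-09). Zbp1, a sensor of Z-form nucleic acid, rose 4.67-fold from 259.9, 453 and 370.4 to 1117, 2229 and 1791, and Tlr3, an endosomal receptor of double-stranded RNA, rose 3.55-fold. Nlrp3, the inflammasome sensor, rose 3.51-fold. Tlr13, an endosomal receptor of bacterial ribosomal RNA, was the one member lower, at 219, 268 and 254 without and 92.4, 147 and 128 with LPS (log2 -1.03 ± 0.30, adjusted p = 0.0135), and it did not pass without the LPS array numbered 1. Clec4d, a bright C-type lectin at 10622, 13625 and 13346 without LPS, did not pass (log2 0.12 ± 0.09).

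Among receptors of the tumour necrosis factor family, 5 of 16 were higher and 3 lower (5 and 1 after centring). Fas, a death receptor, gave 102, 91.2 and 135 without and 1460.3, 2092 and 1772 with LPS, a 16.3-fold rise (log2 4.03 ± 0.19, adjusted p = 2.36e-11). Tnfrsf1b, the second tumour necrosis factor receptor, rose 14.3-fold from 66.9, 101 and 60.7 to 659, 1683 and 1075 (adjusted p = 1.91e-07). Cd40, the co-stimulatory receptor of CD40 ligand, rose 8.50-fold from 466, 689 and 702 to 4067, 5828 and 5845 (adjusted p = 1.97e-10). None of these overlapped between groups, which the rule for naming them required. Tnfrsf11a, or RANK, through which RAW264.7 cells can be driven toward osteoclasts, fell 1.77-fold (log2 -0.83 ± 0.15) on one probe set, and the other gave -0.20 and did not pass.

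Of 39 tested G protein-coupled receptors 16 were higher and 7 lower. Ccrl2, a non-signalling receptor that presents chemerin, gave 96.4, 82.3 and 84.8 without and 982, 1654 and 1446 with LPS, a 15.2-fold rise (log2 3.92 ± 0.31, adjusted p = 1.54e-08). Hcar2, the niacin and beta-hydroxybutyrate receptor, rose 10.1-fold from 170.2, 219.9 and 270.4 to 1519, 2886 and 2369 (adjusted p = 7.98e-09). Ptger2, the EP2 receptor of prostaglandin E2, was under the array median in 2 of 3 vehicle arrays at 31.5, 48.9 and 63.4 and reached 344, 774 and 971, at least 11.5-fold higher (adjusted p = 2.03e-08). Receptors for complement fragments and for medium-chain fatty acids rose as well. Gpr84, the medium-chain fatty acid receptor, went from 2194, 3475 and 3266 to 9731, 11044 and 10424, 3.56-fold, C3ar1 rose 3.97-fold, C5ar1 2.91-fold and Gpr18 2.89-fold. Going the other way, Gpr183, the oxysterol receptor EBI2, fell 3.91-fold from 1142, 1991 and 1951 to 382, 433 and 448 (adjusted p = 2.21e-07). The serotonin receptor Htr1b fell 3.20-fold from 806, 1309.8 and 1359 to 257, 397 and 428 (adjusted p = 0.000178), while its other probe set gave a log2 change of -0.23 and did not pass. The fractalkine receptor Cx3cr1 fell 2.43-fold from 1372, 1648 and 1682 to 708, 584 and 644 (adjusted p = 0.000981). Gpr155, an orphan, was at least 2.12-fold lower. Ptger4, the EP4 receptor of prostaglandin E2, gave overlapping signals (log2 0.13 ± 0.13, adjusted p = 0.487).

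Of 38 cytokine and growth factor receptors 10 were higher and 9 lower. Il13ra2, a receptor chain of interleukin-13 with a short tail, rose 4.20-fold from 88.2, 120.1 and 126 to 387, 558 and 461 (adjusted p = 9.32e-08). Il15ra, which presents interleukin-15, rose 3.35-fold and Notch1 3.65-fold. Nrp1, a co-receptor of semaphorins and of vascular endothelial growth factor, fell 2.90-fold from 208, 317 and 242 to 73.7, 78.2 and 113 (adjusted p = 3.12e-06). Il6ra fell 2.08-fold on one of its probe sets, and the other gave a log2 change of -0.01. Csf1r, the macrophage colony-stimulating factor receptor, gave a log2 change of 0.11 ± 0.09 on its brightest probe set and did not pass. Its other probe sets gave -0.45 and -0.55, and both passed as lower. Of 33 scavenger, phagocytic and paired immune receptors 11 were higher (7 without the LPS array numbered 3) and 4 lower. Axl, which binds phosphatidylserine through Gas6, rose 3.12-fold from 54.5, 72.2 and 84.6 to 107, 236 and 403. Fcgr2b, the inhibitory Fc receptor, rose 3.11-fold on a probe set that may bind related transcripts. Sirpa, the inhibitory receptor for CD47, fell 2.30-fold from 1685, 1966 and 1589 to 725, 829 and 724 (adjusted p = 7.73e-07), and Trem2, a lipid receptor that signals through Tyrobp, fell 2.06-fold on one probe set, while another gave a log2 change of -0.16. Tyrobp itself did not pass (log2 0.08 ± 0.08).

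The interferon-stimulated response motif, GAAA and GAAA with any 2 bases between them on either strand, was in 3.04% of the windows of tested genes, 11.5% of those of genes higher at least 2-fold and 2.69% of those lower at least 2-fold. Of the 92 list members that rose at least 2-fold, 7 had a match wholly before a start site. Tnfrsf1b and Gpr18 are shown as receptors among them, at chr4:145246871-145246905 (-) and chr14:121915895-121915954 (-), with the match in capitals:
Tnfrsf1b: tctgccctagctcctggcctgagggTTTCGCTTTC
Gpr18: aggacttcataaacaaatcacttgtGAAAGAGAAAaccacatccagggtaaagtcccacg

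**Figure D3:**
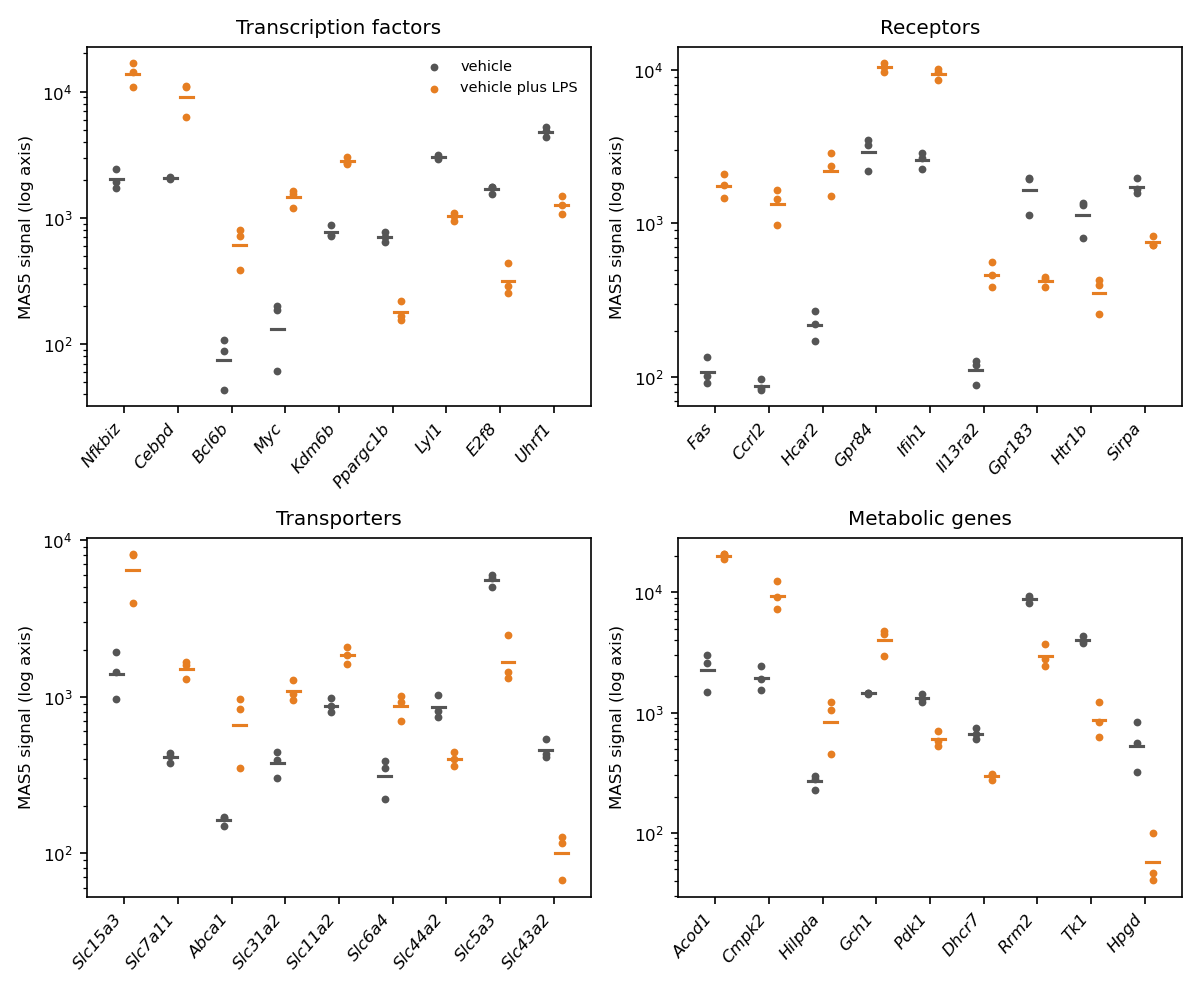
Each panel gives, for 9 genes of one class, the MAS5 signal on a log axis of the 3 vehicle arrays (grey) and the 3 LPS arrays (orange), with a short line at the mean log2 signal of each group. The arrays of the groups do not overlap for any of these genes, which was a condition for choosing them. The largest contrasts shown are Fas (16.3-fold) and Ccrl2 (15.2-fold).

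Of 162 tested transporter genes 26 (16.0%) were higher and 42 (25.9%) lower on the deposited scale, against 10.1% and 21.8% of all tested genes, with a median log2 change of -0.106, and 35 and 22 after centring. A change of 2-fold was reached by 7 rises and 5 falls. By symbol, 217 Slc genes gave 23 higher and 47 lower (31 and 28 after centring), and 28 Abc genes 3 and 6 (3 and 2), with 3 lower without the vehicle array numbered 2 and 2 without the LPS array numbered 3.

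Of 25 amino acid and peptide transporters 4 were higher and 4 lower (6 and 1 after centring). The number lower was 2 when the LPS array numbered 2 or the vehicle array numbered 2 or 3 was left out. Slc15a3, a lysosomal carrier of histidine and small peptides, gave 973, 1934 and 1440.3 without and 3992, 8079 and 8167 with LPS, a 4.60-fold rise (log2 2.20 ± 0.25, adjusted p = 1.38e-06). Slc7a11, the cystine and glutamate exchanger that feeds glutathione synthesis, gave 417, 439 and 377 without and 1657, 1594 and 1290.1 with LPS, a 3.67-fold rise (log2 1.87 ± 0.11, adjusted p = 2.76e-10). Slc43a2, a carrier of branched-chain and other neutral amino acids, gave 428, 537 and 409 without and 127, 116 and 66.9 with LPS, a 4.57-fold fall (log2 -2.19 ± 0.27, adjusted p = 4.05e-06). A second probe set of Slc43a2 also fell. Slc7a2, a cationic amino acid carrier that supplies arginine, was under the array median without LPS and at least 2.19-fold higher with it (adjusted p = 0.0107), and it did not pass without the vehicle array numbered 1. Slc38a2, the brightest that did not pass, gave log2 0.17 ± 0.08. It passed as higher after centring (0.29), without the LPS array numbered 1 (0.25) and without all arrays numbered 1 (0.22).

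Of 25 sugar, organic acid and nucleoside transporters 2 were higher and 12 lower (4 and 9 after centring, 4 and 10 after quantile normalization). Both risers carry glucose or hexoses. Slc2a1, or GLUT1, went from 5359.7, 6774 and 7134 to 8497, 11177 and 11039.5, a 1.59-fold rise (adjusted p = 0.00189), and Slc2a6, a lysosomal hexose transporter, rose 1.86-fold (adjusted p = 0.000627). The fallers included Slc37a2, a sugar phosphate exchanger of the endoplasmic reticulum, which fell 2.32-fold, and Slc16a7, the monocarboxylate transporter MCT2, which fell 2.09-fold. Slc44a2, a choline carrier, fell 2.13-fold on a probe set that may bind related transcripts, while its other probe sets gave log2 changes of -0.45 and 0.41 and did not pass. Slc16a1, or MCT1, was far brighter at 12462, 13451 and 13059 and did not pass (log2 -0.09 ± 0.09). It passed as lower after quantile normalization (-0.29). Outside the lists, Slc5a3, the sodium-coupled myo-inositol carrier, gave 5707, 4993 and 6023 without and 2468, 1319.9 and 1439 with LPS, a 3.32-fold fall (log2 -1.73 ± 0.18, adjusted p = 3.91e-07), and both its other probe sets fell. The serotonin transporter Slc6a4 went from 222, 348 and 387 to 698, 1014 and 925, a 2.80-fold rise (adjusted p = 9.81e-05). The monocarboxylate family members Slc16a4 and Slc16a12 fell 2.25-fold and 2.49-fold.

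Metal transporters were the transport list with the most rises, 7 of 27 higher against 2 lower (8 and 1 after centring). Slc31a2, a copper carrier of endolysosomes, gave 301, 394 and 443 without and 1033, 1278 and 957 with LPS, a 2.88-fold rise (log2 1.53 ± 0.15, adjusted p = 3.82e-07), and its other probe set gave a log2 rise of 1.96. Slc11a2, the iron importer DMT1, rose 2.09-fold from 794, 982 and 866 to 1618, 2069 and 1845 (adjusted p = 6.17e-06), and Slc11a1, the phagosomal metal pump NRAMP1, rose 1.86-fold. Slc30a1, which exports zinc across the plasma membrane, fell 1.62-fold on one probe set, and the other gave a log2 change of -0.13 and did not pass. The transferrin receptor Tfrc gave log2 0.29 ± 0.17 and did not pass, except in the fit of only the 6 arrays.

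Of 27 ion transporters, pumps and channels 5 were higher and 6 lower (7 and 4 after centring), and the number higher was 3 without the vehicle array numbered 2 and 2 without the LPS array numbered 2. P2rx7, the ATP-gated channel of inflammasome activation, gave 536, 579 and 427 without and 194, 159.6 and 86.3 with LPS, a 3.67-fold fall (log2 -1.88 ± 0.23, adjusted p = 3.46e-06). A second P2rx7 probe set fell by 1.76 on the log2 scale and another, at 0.20, did not pass. Clic4, a chloride channel protein, rose 1.54-fold. Of 25 ABC, lipid and water transporters 5 were higher and 8 lower (5 and 2 after centring). The number higher was 3 without the vehicle array numbered 2 or any 1 of the LPS arrays, and the number lower was 4 and 2 without the vehicle array numbered 2 and the LPS array numbered 3. Abca1, which exports cholesterol to apolipoprotein A-I, gave 168, 149.6 and 169.5 without and 349.7, 966 and 834 with LPS, a 4.05-fold rise (log2 2.02 ± 0.27, adjusted p = 1.15e-05). The LPS array numbered 1 was the lowest of its group but above all vehicle arrays. Abcc1, an exporter of glutathione conjugates, rose 1.45-fold, and Aqp9, a channel for water and glycerol, was at least 1.73-fold higher. Of 33 mitochondrial carriers 3 were higher and 10 lower (5 and 5 after centring), none of them 2-fold. Slc25a16 fell 1.75-fold, Slc25a30 1.66-fold and Slc25a15, the ornithine carrier, 1.65-fold, though the other Slc25a15 probe set gave a log2 change of -0.18 and did not pass. The adenine nucleotide carrier Slc25a5 did not pass (log2 0.17 ± 0.08) and passed after centring.

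Metabolic genes changed about as often as all genes, with a few large exceptions. Of 385 tested members 44 (11.4%) were higher and 84 (21.8%) lower, against 10.1% and 21.8% of all tested genes. Their median log2 change was -0.071, and after centring 60 were higher and 52 lower. At least 2-fold, 14 rose and 12 fell.

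Central carbon genes moved little apart from single members. Acod1, which makes itaconate from the cycle intermediate cis-aconitate, gave 1471, 2598 and 2991 without and 20885, 20814 and 19030.5 with LPS, an 8.98-fold rise (log2 3.17 ± 0.19, adjusted p = 4.6e-10). It was the only one of 27 genes of the tricarboxylic acid cycle and itaconate to move 2-fold. In this list 2 were higher and 6 lower, with 2 and 1 after centring and 2 to 3 lower when the vehicle or LPS array numbered 2 or 3 was left out. Of 35 genes of glycolysis and the pentose phosphate pathway 3 were higher and 6 lower. Pfkfb3, which makes an activator of phosphofructokinase, gave 336, 272 and 289.8 without and 365, 1439 and 1247 with LPS (log2 1.54 ± 0.39, adjusted p = 0.00463). The LPS array numbered 1 lay just above the vehicle arrays, and without it the log2 rise was 2.17. Hk2, a hexokinase, rose 1.51-fold. Pdk1, which inhibits pyruvate dehydrogenase, fell 2.19-fold from 1219, 1305 and 1440.5 to 586, 533 and 704 (adjusted p = 5.55e-05), and Pdp1, the phosphatase that reactivates pyruvate dehydrogenase, fell 2.03-fold. Ldha was among the brightest genes and did not pass (log2 0.11 ± 0.10). Of 65 respiratory chain and ATP synthase genes 1 was higher and 2 lower, against 5 and 0 after centring and 0 and 10 after quantile normalization, and 6 were lower without the LPS array numbered 1. With each array left out in turn 0 to 2 were higher and 1 to 6 lower. The complex I subunit Ndufs7 fell 1.27-fold but did not pass after centring.

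Of 46 nucleotide synthesis and salvage genes 4 were higher, 21 (45.7%) lower and 21 did not pass (6 higher and 17 lower after centring), with a median log2 change of -0.205. Tk1, the S-phase thymidine kinase, gave 3788, 4357 and 3905 without and 1236, 628 and 828 with LPS, a 4.64-fold fall (log2 -2.22 ± 0.17, adjusted p = 6.67e-09). Rrm2, the small subunit of ribonucleotide reductase, fell 2.98-fold from 8126, 9008 and 9301 to 3745, 2456 and 2809.7 (adjusted p = 8.38e-08) on a probe set that may bind related transcripts, and Tyms, thymidylate synthase, fell 2.56-fold on one probe set, while the other gave a log2 change of -0.32 and did not pass. The members that rose included a mitochondrial kinase and salvage enzymes. Cmpk2, that interferon-inducible kinase, rose 4.84-fold from 1550.2, 2442 and 1899.9 to 7211, 12451 and 9078 (adjusted p = 5.02e-05). Pnp, a purine salvage enzyme, rose 1.79-fold, and Upp1, a uridine phosphorylase, was at least 1.92-fold higher. Of 27 genes of serine, one-carbon and amino acid metabolism 4 were higher and 11 lower, with 5 and 5 after centring and 2 and 13 after quantile normalization. The number lower was 6 without the vehicle array numbered 2 and 7 without the LPS array numbered 2 or 3. Cth, which releases cysteine from cystathionine, rose 1.91-fold and Glul, glutamine synthetase, fell 1.94-fold.

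Of 14 tested genes of arginine, polyamine, biopterin and tryptophan metabolism 6 were higher and 1 lower (7 and 3 after quantile normalization). Nos2, the inducible nitric oxide synthase, rose 7.92-fold from 50.2, 85.6 and 40.6 to 260.5, 719.6 and 463 (adjusted p = 0.000367). Gch1, the first enzyme of the tetrahydrobiopterin cofactor that Nos2 needs, rose 2.76-fold from 1458, 1426 and 1449.7 to 2956, 4742 and 4519 (adjusted p = 5.03e-08). The next enzyme of that route, Pts, fell 1.40-fold (log2 -0.49 ± 0.11, adjusted p = 0.00234). Arg2, the mitochondrial arginase, was at least 1.93-fold higher.

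Lipid genes moved in both directions. Of 37 fatty acid genes 6 were higher (3 without the LPS array numbered 3) and 14 lower. Fabp4, a fatty acid binding protein, rose 7.13-fold from 235, 447 and 401 to 1896, 3547 and 2274 (log2 2.83 ± 0.23, adjusted p = 1.55e-08), and Fabp5, its bright relative, 1.53-fold. The desaturase Scd2 fell 2.19-fold from 9860.2, 14995 and 14933 to 5437, 6049 and 6388 (adjusted p = 0.000587), and the elongases Elovl5 and Elovl6 fell 1.79-fold and 1.96-fold. Of 52 glycerolipid, phospholipid and sphingolipid genes 8 were higher and 10 lower (12 and 4 after centring, 9 and 7 after quantile normalization), and the number lower was 6 without the vehicle or LPS array numbered 2 and 5 without the LPS array numbered 3. Hilpda, an inhibitor of the lipase Atgl on lipid droplets, rose 3.12-fold from 282, 298 and 229 to 455, 1222 and 1053 (adjusted p = 2.86e-05). Lpin1, a phosphatidate phosphatase, fell 2.74-fold from 159.6, 255 and 199 to 79.3, 74.9 and 66.1. Of 27 cholesterol genes 2 were higher and 3 lower (3 and 2 after centring, 1 and 3 after quantile normalization), and 1 was higher when the vehicle array numbered 1 or 3 or the LPS array numbered 2 or 3 was left out. Among the fallers were Dhcr7, the last enzyme of cholesterol synthesis, at 2.26-fold (log2 -1.18 ± 0.14), and Cyp27a1, which makes an oxysterol from cholesterol, at 1.88-fold. Of 13 prostaglandin and leukotriene genes 2 were higher (1 without the vehicle array numbered 1 or the LPS array numbered 2 or 3) and 4 lower. Ptgs2, or cyclooxygenase-2, rose 6.72-fold. Hpgd, which degrades prostaglandins, gave 319, 828 and 558 without and 40.2, 100.3 and 46.7 with LPS, at least 8.70-fold lower (adjusted p = 8.21e-06), on a probe set that may bind related transcripts.

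Of 42 NAD, glutathione, thioredoxin and oxidant genes 6 were higher and 6 lower, with 9 and 5 after centring and 5 and 10 after quantile normalization. Cybb, the catalytic subunit of the phagocyte NADPH oxidase, rose 2.16-fold from 4592, 5859 and 5786 to 10389, 13849 and 10898, and Sod2, the mitochondrial superoxide dismutase, 1.99-fold from 5857, 5972 and 5844 to 10174, 13341 and 11864. Gclc, the catalytic subunit of the enzyme that starts glutathione synthesis, fell 2.04-fold from 3292, 2349 and 2291 to 1606, 1292 and 1000.5 (adjusted p = 7.56e-05), and Nadk2, the mitochondrial NAD kinase, fell 2.11-fold. The cystine exchanger Slc7a11 rose while Gclc fell.

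The same LPS contrast was measured on separate arrays in cells given the fraction at 10 ug/mL and in cells given the mixture. The mixture held chlorogenic acid at 0.2 uM, quercetin at 0.08 uM, amentoflavone at 0.07 uM and pseudohypericin at 0.03 uM. It called 4309 genes (37.3%) in fraction cells and 2844 (24.6%) in mixture cells. Of the vehicle calls, 2675 (72.7%) were also called in the same direction in fraction cells, which was 62.1% of the fraction calls, and 20 were called in the other direction. For the mixture, 2394 vehicle calls (65.1%, and 84.2% of the mixture calls) were called in the same direction and 1 in the other. The difference in LPS effect itself was tested as an interaction. It passed for 247 genes (2.14%) in the fraction and for 0 (0.0%) in the mixture, where limma gave 412 genes an unadjusted p under 0.05. The fraction count was 123 without the LPS array numbered 2 and 125 without the vehicle array numbered 3. Arrays of fraction and mixture cells were not left out singly.

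Of the 157 genes described, 20 passed that test for the fraction, 11 of them also with each of the 6 arrays of vehicle cells left out in turn. Most of the 157 were chosen for a large LPS effect on the same vehicle arrays that enter this test. That choice favours a smaller effect in fraction cells, and the count is not comparable with the share of all genes. In 10 of the 20 the LPS effect was larger in size in fraction cells. Acod1 rose by log2 3.17 ± 0.19 in vehicle and by 4.82 in fraction cells, a difference of 1.65 (adjusted p = 0.00261). Fabp4 rose more too, by 4.08, with a difference of 1.24 (adjusted p = 0.0474) that did not pass when the vehicle array numbered 2 or 3 or the LPS array numbered 1 or 3 was left out. Smaller LPS effects in fraction cells were found for Cebpd, at 0.84 against 2.14 (adjusted p = 0.00177), for Atf3, at 0.28 against 2.00 (adjusted p = 0.0112), and for Slc7a11, at 0.99 against 1.87 (adjusted p = 0.00411). Gch1 stood at 0.39 against 1.46 (adjusted p = 0.00291) and Abca1 at 0.42 against 2.02 (adjusted p = 0.0314). The Abca1 difference did not pass when any array but the LPS array numbered 1 was left out. Id2, which fell by 1.13 in vehicle cells, gave 0.19 in fraction cells (adjusted p = 0.00489). Ptger4, which did not pass in vehicle cells, gave -1.46 in fraction cells, and the difference passed (adjusted p = 0.000145). By contrast Slc15a3, Slc43a2, Slc5a3, Nfkbiz, E2f8, Hcar2 and Ptger2 did not pass the interaction test with either treatment.

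**Figure D4:**
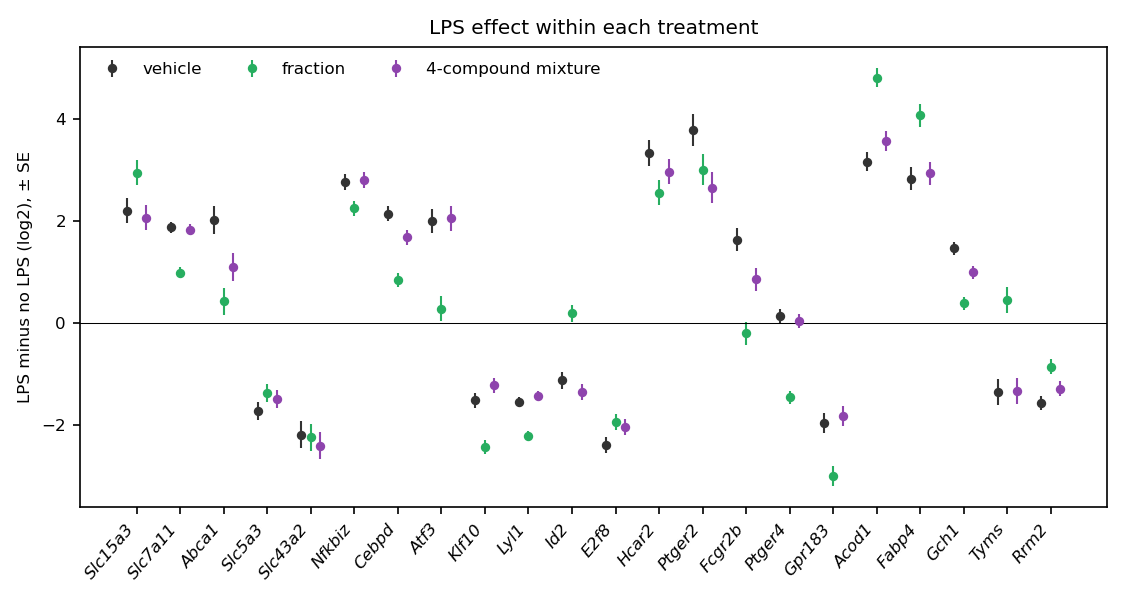
Points give the log2 LPS effect (LPS minus no LPS) of 22 genes in vehicle (black), fraction (green) and 4-compound mixture (purple) cells, with bars of 1 SE of the fit and 3 arrays in each group. Acod1 lies highest in fraction cells, and Id2, Ptger4 and Cebpd show fraction effects away from the other treatments.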

How the data were processed

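Per the labels' protocols, total RNA was extracted with Trizol, cleaned on RNeasy columns and labelled with biotin by the one-cycle method. The authors deposited linear signal intensities of 45101 probe sets made with MAS5, per the submitters' processing notes, whose version is not given in the sources used here. After 64 control probe sets were left out, 34945 had 1 gene symbol, 932 several and 9160 none, and 34741 symbols were updated through Entrez IDs. Intensities under 1 (0.824%) were set to 1. Only probe sets at or above the median on 3 or more of the 18 arrays were analysed, which left 25612, of which 21553 had 1 symbol.

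One model of 6 group means over 18 arrays was fitted with limma 3.58.1 in R 4.3.3 (eBayes with trend, 12 residual degrees of freedom, two-sided). Errors of log2 changes are standard errors of this fit with 3 arrays in each group. Where the lower group's mean lay under the array median the fold was taken against that median and written "at least". The number of arrays limits the precision. In 10 simulations with 200 changed genes among 11547, 39.1% of log2 changes of 0.5, 74.6% of 1 and 86.7% of 2 were recovered, and 4.17% of calls were false. The data called a far larger share of genes (31.9%), and the simulated noise was independent between genes. These rates therefore do not carry over to the calls reported here. Of 4111 genes with a called probe set, 9 had probe sets called in both directions. Other probe sets are not given for every gene. Those of Hpgd, Aqp9, Epas1, Nr1d2 and Pts went in the same direction as the printed change but did not pass. Some of those of Elk3, Nrp1, Elovl6, Fabp4, Slc25a30, Nadk2, Stat3 and Id2 also did not pass. Other probe sets of the genes named after their values were seen, listed below, were not looked up.

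The members, lists and tests were chosen with earlier results of these data known. Named genes were the 15 largest rises and falls past the threshold with non-overlapping groups, 8 of each per class, 3 per list, 5 for each of the symbol families Slc, Abc, Gpr and Zfp, and the brightest member of each list that did not pass. Not all are printed, and cytokine and chemokine genes are not described. Rel, Nfkb2, Nfkbia, Atf3, Junb, Fosl2, Egr1, Zeb2, Klf6, Foxm1, Nlrp3, C3ar1, C5ar1 and Epcam were named after their values were seen. The rule first set for promoters found no kB match, so every listed start site of list members changed 2-fold was searched instead. This was also decided after the data were seen, and it left out members without a window or on the chromosome set aside. Alternatives were a replicate block, other scalings, filters, pseudocounts and variance models, every probe set, a fit of only the 6 arrays, a minimum change of 2-fold, leaving out single arrays and, added after seeing the data, all 6 arrays numbered 1 left out. The labels do not say what a shared replicate number means. Deviations of same-numbered arrays correlated at 0.17, 0.091 and 0.097, and those of differently numbered arrays at -0.105 to 0.016. All same-numbered values were thus the higher. Deviations from a group mean cancel within the group, so these correlations are not independent of each other and do not settle whether arrays were paired. Arrays were not treated as paired in the main fit, and the replicate block is given as an alternative. Detection calls and scans were not analysed here.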

Additional observations from a re-analysis of the deposited data

Results flagged for a closer look

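The genes below were picked out because the LPS effect in fraction cells differed from that in vehicle cells in limma's interaction test, adjusted over all tested genes. Values are the log2 LPS effect in fraction cells minus that in vehicle cells. They come from the genes described above, most of which were chosen by their LPS effect on the same vehicle arrays. Among transcription factors the difference was -1.30 for Cebpd, -1.72 for Atf3, -1.22 for Klf6, -0.91 for Klf10, -1.05 for Klf9, -0.66 for Lyl1, 1.32 for Id2 and 0.79 for Uhrf1. Cebpd, Atf3 and Klf6 thus rose less with the fraction, while Lyl1, Klf9 and Klf10, which fell in vehicle cells, fell further. Among receptors it was 0.86 for Ifih1, -1.04 for Gpr183, -1.60 for Ptger4 and -1.84 for Fcgr2b. Among transporters it was -0.89 for Slc7a11 and -1.60 for Abca1. Among metabolic genes it was 1.65 for Acod1, 1.81 for Tyms, -1.08 for Gch1, 1.24 for Fabp4, 0.66 for Fabp5 and -1.26 for Scd2. Tyms fell in vehicle cells and gave 0.45 in fraction cells. The difference passed under every alternative that gave a value for 8 of the 20 genes, namely Cebpd, Lyl1, Id2, Ptger4, Fcgr2b, Slc7a11, Acod1 and Gch1. None of the genes described passed the same test for the mixture.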

How the results depend on the processing

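With each of the 6 arrays left out in turn, 860 to 1188 genes were higher and 1945 to 2612 lower with LPS, against 20 to 25 and 30 to 40 transporters, 50 to 63 and 66 to 72 transcription factors, 46 to 58 and 19 to 24 receptors, and 36 to 46 and 61 to 88 metabolic genes. Fraction interactions numbered 123 to 344 and mixture interactions 0 to 10, the 10 without the LPS array numbered 1. These fits kept every array of fraction and mixture cells. A 2-fold minimum left 410 higher and 410 lower genes (7 and 5 transporters, 35 and 25 transcription factors, 36 and 9 receptors, 14 and 12 metabolic genes) and 90 fraction interactions. Median centring left 1574 lower genes, 22 lower transporters and 52 lower metabolic genes. With a replicate block, 1356 genes were higher and 2813 lower, no named call was lost, and fraction interactions numbered 467. They numbered 125 without an eBayes trend, and mixture interactions numbered 2 without the arrays numbered 1. The cause of these changes was not tested. Of 220 named calls, 175 kept their direction and their side of the threshold under every alternative that gave a value. The antizyme gene Oaz1, which overlapped between groups, went from 0.02 to -0.20 (adjusted p = 0.0103) in limma's test after quantile normalization. Genes near or under the array median have the least certain changes, since MAS5 signals are noisy there, and changes of log2 0.5 were recovered less often than larger ones in simulated data.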
